A study of Mus musculus with 6 samples.

Results

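Primordial germ cells are the embryonic founders of eggs and sperm, and 10 genes that mark or specify them were followed in tissue cut from either side of the mouse dorsal aorta. The genes were Prdm1, Prdm14, Tfap2c, Pou5f1, Nanos3, Dppa3, Ddx4, Dazl, Ifitm1 and Ifitm3. They were chosen by name, as the rows of the deposited expression table that carry these gene symbols in the platform annotation, and all 10 were found among the 24675 genes of the table. Each gene had 1 probe set, the group of array probes that is summarised into 1 value. Transcript levels were measured on Affymetrix mouse Gene arrays in embryos of the C57Bl/6 strain at embryonic day 10.5, with no mutation, transgene or treatment named for either region. Laser microdissection of 20 μm cryosections gave a dorsal piece, from the aortic roof up to the notochord, and a ventral piece, below the aorta. Each region was measured on 3 arrays, and between 200 and 1000 pg of RNA per sample was amplified before labelling. Neither the number of embryos nor that of sections behind a sample is stated in the labels. The comparison asks whether transcripts of the germ line differ between the ventral side, where the series places the niche of blood stem cells, and the dorsal side.

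In the mouse, signals of the BMP family act on the proximal epiblast to set aside a small group of germ cell precursors, in which the transcriptional regulators Prdm1, Prdm14 and Tfap2c suppress the somatic programme and restore features of pluripotency. The germ cells then enter the hindgut wall, leave it, and move through the dorsal mesentery to the genital ridges, which lie on either side of the mesentery beneath the aorta, guided by Cxcl12 and kept alive by Kit ligand. In the ridges they switch on the RNA-binding proteins Ddx4 and Dazl. Several of these genes are not exclusive to germ cells: Prdm1 acts in endoderm and somatic mesenchyme, Tfap2c in ectoderm, and Ifitm1 and Ifitm3 in many mesodermal and interferon-exposed cells.

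No germ cell gene differed between ventral and dorsal tissue past the threshold of an adjusted p of 0.05 in limma. Of the 60 values of these genes, 33 exceeded the median of their array and 1 exceeded the level used here as a reference for background. Ifitm1 had the largest dorsal excess, at 3.71 ± 0.40 in dorsal and 3.04 ± 0.13 in ventral tissue (mean ± SD, n = 3 each, log2 signal), and was higher in all dorsal than in all ventral arrays, as were Prdm1 and Prdm14. No member was higher in all ventral arrays. Of all genes, 12% were separated in this way towards dorsal and 6.74% towards ventral. Dppa3, one of the most selective markers of these cells, ran from 1.94 to 4.61 in log2 signal among the 6 arrays, with the lowest array dorsal and the highest ventral but the groups in overlap, and stayed on every array below the level used here as a reference for background.

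The promoters of 3 members are printed to show the start regions of an Ifitm pair and of a germline gene. Ifitm1 and Ifitm3 lie near each other on chromosome 7, showed different patterns across the arrays, and belong to an interferon-inducible family. Ddx4 is a germline gene with a CpG-rich promoter that somatic cells keep silent. Each window runs from 250 bases before to 50 bases after the annotated start, 5′ to 3′ on the gene's own strand, from RefSeq on GRCm38.p6. Capitals in the Ifitm sequences mark the interferon-response pattern GAAANNGAAA on either strand, and capitals in Ddx4 mark the E-box CACGTG and the E2F-type pattern GCGGGAA.
Ifitm1 (chr7:140967826-140968125, plus strand): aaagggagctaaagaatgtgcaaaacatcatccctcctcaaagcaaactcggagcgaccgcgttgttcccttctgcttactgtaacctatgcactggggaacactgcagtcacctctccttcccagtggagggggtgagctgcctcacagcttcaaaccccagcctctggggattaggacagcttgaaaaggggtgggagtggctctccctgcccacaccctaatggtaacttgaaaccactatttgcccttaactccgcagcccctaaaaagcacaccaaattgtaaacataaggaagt
Ifitm3 (chr7:141010695-141010994, minus strand): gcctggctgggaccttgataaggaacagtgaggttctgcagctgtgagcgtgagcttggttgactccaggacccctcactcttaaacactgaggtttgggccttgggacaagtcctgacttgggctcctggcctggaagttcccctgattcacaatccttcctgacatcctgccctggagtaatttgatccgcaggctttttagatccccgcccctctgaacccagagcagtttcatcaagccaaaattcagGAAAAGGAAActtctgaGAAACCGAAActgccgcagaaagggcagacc
Ddx4 (chr13:112652261-112652560, minus strand): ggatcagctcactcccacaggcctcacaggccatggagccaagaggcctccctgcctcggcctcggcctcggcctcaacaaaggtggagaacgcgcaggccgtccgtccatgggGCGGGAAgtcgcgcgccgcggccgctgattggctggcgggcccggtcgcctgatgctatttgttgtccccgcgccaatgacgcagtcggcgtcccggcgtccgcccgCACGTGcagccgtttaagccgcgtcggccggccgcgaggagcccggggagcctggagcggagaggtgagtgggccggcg
The Ifitm3 window held 2 matches to GAAANNGAAA that did not overlap, GAAAAGGAAA beginning 3 bases and GAAACCGAAA beginning 20 bases into the transcript, and the Ifitm1 window held 0. The pattern occurred in 3.44% of the 32851 RefSeq windows of the same length. The Ddx4 window held CACGTG 29 bases and GCGGGAA 136 bases before the start, patterns found in 7.15% and 4.6% of windows. It also held 38 CpG dinucleotides, more than 95% of windows, against 28 for Dazl and 20 for Prdm1 and a median of 7 over all windows. RefSeq windows were matched for 7 of the 10 members, with 2 alternative windows for Pou5f1. The octamer ATGCAAAT, a POU factor site (1.74% of windows), was in none of these 8 windows, and GCCNNNGGC, an AP-2 pattern (16.6%), was in those of Nanos3 and, once, Pou5f1. Such matches describe letters only and are not evidence of binding.

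The deposited log2 values are RMA signals, and the median signal of an array lay between 3.20 and 3.27. Since the files hold no call of presence, the 1403 olfactory, vomeronasal and taste receptor genes of the same arrays were taken as a reference of genes that trunk tissue is not known to use. Their 95th percentile was 4.59 to 4.65 on the dorsal and 4.74 to 4.94 on the ventral arrays. Probe sets differ in affinity, so a rank on the array describes signal and not the number of transcripts of a gene. Of the 60 values of the members, 33 exceeded their array's median and 1 exceeded the receptor genes' 95th percentile, namely Ifitm3 on dorsal array 3. That share of 1.67% stands beside 7.38% of the values of all genes. A value within the receptor range is not shown to be above background, and differences in signal at that height can understate those in RNA.

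**Figure D1:**
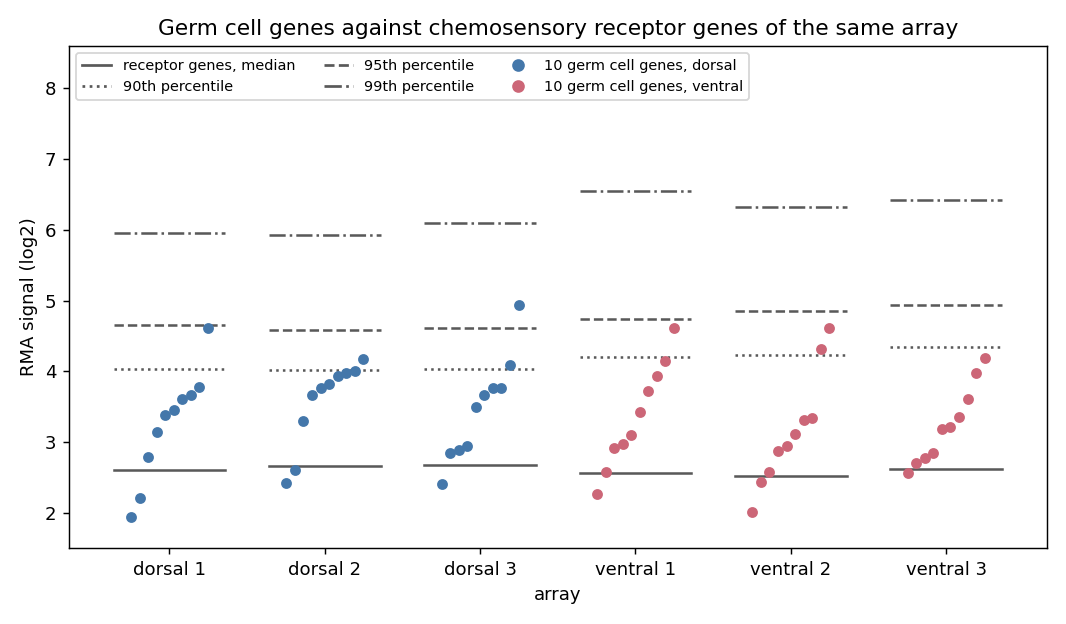
Log2 RMA signal (y axis) of the 10 germ cell genes on each of the 6 arrays (x axis), as points in order of signal, with lines at the median and the 90th, 95th and 99th percentiles of the 1403 chemosensory receptor genes of the same array. A single point, Ifitm3 on dorsal array 3 at 4.94, lies above the 95th percentile line.

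Among the specification factors, Prdm1, the zinc finger repressor that starts the germ cell programme, had log2 signals of 3.61, 3.76 and 3.66 on dorsal arrays 1, 2 and 3 and of 3.42, 3.34 and 3.21 on the ventral arrays. All dorsal values lay above all ventral values, and the replicates of each region were close together (SD 0.08 and 0.10). The ventral minus dorsal difference was -0.35 ± 0.17 (SE), with a 95% interval from -0.78 to 0.07 and an adjusted p of 0.533 in limma. Relative to the array medians Prdm1 stood at -0.03 to 0.49, so its difference was measured at a dim signal.

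Prdm14, the partner of Prdm1 that restores pluripotency genes and lowers DNA methylation, had 3.78, 4.01 and 4.09 on the dorsal and 3.72, 3.31 and 3.61 on the ventral arrays. The groups did not overlap, but the gap was narrow, with dorsal array 1 and ventral array 1 differing by -0.07. The difference of -0.42 ± 0.20 (SE) had a 95% interval from -0.90 to 0.07 and an adjusted p of 0.528 in limma. Prdm14 exceeded the median on 6 of 6 arrays, by 0.11 to 0.82.

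Tfap2c, the AP-2 gamma factor that acts downstream of Prdm1, had 2.21, 2.60 and 2.41 on the dorsal and 2.26, 2.43 and 2.56 on the ventral arrays. These values overlapped fully and stood at -1.03 to -0.68 relative to the array medians, at the 7.8th to 19.4th percentile of an array. The difference was 0.01 ± 0.17 (SE), with a 95% interval from -0.42 to 0.44, which at such a signal does not show equal transcript levels. Of the 3 specification factors, Prdm1 and Prdm14 had separate groups, as had 12% of all genes towards dorsal. Tfap2c, at its low signal, had not.

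Pou5f1, the pluripotency factor Oct4 that germ cells keep after the epiblast has lost it, had 3.66, 3.30 and 2.84 on the dorsal and 2.92, 3.12 and 3.35 on the ventral arrays. The highest and the lowest value were both dorsal. The difference was -0.13 ± 0.27 (SE), with a 95% interval from -0.80 to 0.53.

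Nanos3, an RNA-binding protein that protects migrating germ cells from death, had 4.62, 3.98 and 3.76 on the dorsal and 3.93, 4.31 and 4.19 on the ventral arrays. It lay at the 72.1st to 91.8th percentile of an array, and exceeded the median everywhere by 0.50 to 1.38, but on no array did it pass the receptor genes' 95th percentile. The regions overlapped, with means of 4.12 ± 0.45 and 4.14 ± 0.20 and a difference of 0.02 ± 0.27 (SE, 95% interval -0.64 to 0.68).

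Dppa3, known as Stella, a maternal and germ cell protein that guards DNA methylation, had 1.94, 2.42 and 3.76 on the dorsal and 4.61, 2.01 and 2.70 on the ventral arrays. Ventral array 1 was highest and dorsal array 1 lowest, so the arrays numbered 1 differed by 2.67 towards ventral, while those numbered 2 and 3 differed by -0.41 and -1.06. The range of 2.67 was reached or passed by 1.92% of all genes, whose median range was 0.72. The difference between regions was 0.40 ± 0.70 (SE), with a 95% interval from -1.32 to 2.13 and an adjusted p of 0.846 in limma. Without both arrays numbered 1 it was -0.73, so its direction rests on them.

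On ventral array 1, where Dppa3 was highest, it was the single member at its own maximum. Ddx4, Dazl, Pou5f1 and Nanos3 were at 2.58, 3.10, 2.92 and 3.93 there. Sox2, a pluripotency factor that germ cells and neural progenitors express, was at 7.61 on that array and at 2.20 to 2.73 on the other 5. Of the pluripotency list, Lin28a was there at its lowest signal of the 6 arrays (3.93) and Nanog at 2.86. Utf1 of that list was at its highest (3.53), though at 3.52 on ventral array 3. Wdr77 (7.36) and Tcf21 (4.95), which belong to other lists, were also at their highest on ventral array 1. Dorsal array 2 held the maximum of 5 members, Ddx4, Dazl, Prdm1, Tfap2c and Ifitm1.

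**Figure D2:**
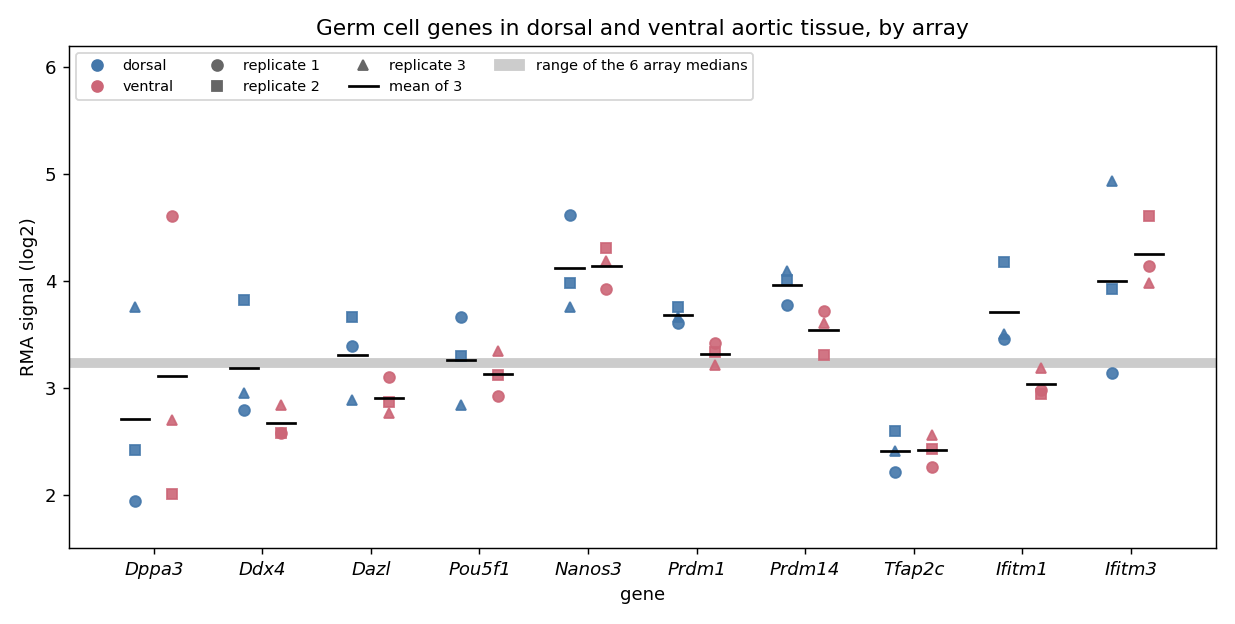
Log2 RMA signal (y axis) of each germ cell gene (x axis) on the 3 dorsal and 3 ventral arrays, with the replicate number as the symbol, the mean of 3 as a black bar and the range of the array medians as a grey band. Dorsal and ventral points are separate for Prdm1, Prdm14 and Ifitm1, and ventral array 1 stands apart for Dppa3 at 4.61.

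Ddx4, the RNA helicase Vasa that germ cells acquire on reaching the genital ridge, had 2.79, 3.82 and 2.95 on the dorsal and 2.58, 2.58 and 2.84 on the ventral arrays. Dorsal array 2 was the only value above its array's median, and the regions overlapped between 2.79 and 2.84. The difference was -0.52 ± 0.27 (SE), with a 95% interval from -1.19 to 0.15 and an adjusted p of 0.550 in limma.

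Dazl, an RNA-binding translational regulator that licenses germ cells for sexual differentiation, had 3.39, 3.66 and 2.89 on the dorsal and 3.10, 2.87 and 2.77 on the ventral arrays. Dorsal arrays 1 and 2 were highest, and dorsal array 3 lay within the ventral range. The difference was -0.40 ± 0.20 (SE), with a 95% interval from -0.90 to 0.11. Between equal-numbered arrays, which are not shown to be pairs, the differences were -1.24 to -0.11 for Ddx4 and -0.79 to -0.11 for Dazl.

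Ifitm1, a member of the fragilis family of small membrane proteins first known from early germ cells, had 3.46, 4.18 and 3.50 on the dorsal and 2.98, 2.94 and 3.19 on the ventral arrays. Every dorsal value exceeded its array's median and every ventral value was below it. The difference of -0.68 ± 0.24 (SE) had a 95% interval from -1.26 to -0.09, an unadjusted p of 0.0298 and an adjusted p of 0.464 in limma. Its adjusted p lay between 0.300 and 0.694 over 16 alternative fits, and its difference stayed negative in each. Since its groups did not overlap, leaving out arrays could not turn that sign.

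Ifitm3, the family member known as fragilis, which is also an antiviral membrane protein, had 3.14, 3.93 and 4.94 on the dorsal and 4.14, 4.61 and 3.98 on the ventral arrays. The dorsal arrays held both its lowest and its highest value, and the difference was 0.24 ± 0.39 (SE, 95% interval -0.73 to 1.22). Its neighbour Ifitm2 varied more among arrays, with 7.32, 4.50 and 4.06 on the dorsal and 6.26, 6.35 and 8.94 on the ventral arrays, a difference of 1.89 ± 1.02 (SE) with an adjusted p of 0.558 in limma. Ifitm6 had a difference of -0.39 ± 0.19 (SE), and its dorsal values of 3.88 to 4.13 lay above its ventral values of 3.49 to 3.79. The family thus showed no common direction. Ifitm transcripts resemble each other in sequence, and whether their probe sets share signal was not tested.

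**Figure D3:**
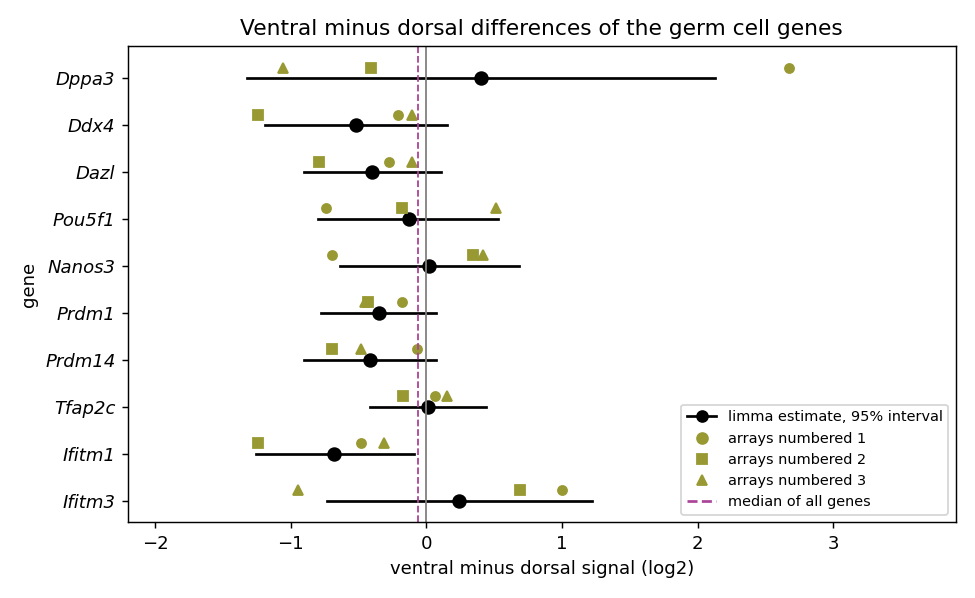
Ventral minus dorsal difference in log2 signal (x axis) for each germ cell gene (y axis), with the limma estimate and its 95% interval in black, the difference of each equal-numbered pair of arrays as small symbols, and the median of all genes as a dashed line. The interval of Ifitm1, from -1.26 to -0.09, is the only 1 of the 10 that leaves out 0.

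Over the members, limma called 0 of 10 at an adjusted p of 0.05, against a background of 0% of all 24675 genes. At an unadjusted p under 0.05 limma had 1 of 10 members in either direction (background 10.2%): 1 of 10 was higher in dorsal tissue (background 5.9%) and 0 of 10 in ventral tissue (background 4.32%). Without the replicate number as a block the dorsal count was 3, with Prdm1 (unadjusted p = 0.0444 in limma) and Prdm14 (0.0472) beside Ifitm1 (0.0182), where 6.84% of all genes were counted as dorsal-higher. The count was 2 without both arrays numbered 1 (4.88% of all genes) and 0 without both arrays numbered 2 (4.26%). Ifitm3 was counted as ventral-higher without both arrays numbered 3 (3.32%). In fits without the block that left out a single array, the dorsal count was 3 without dorsal replicate 1 (8.47% of all genes), 2 without dorsal replicate 3 (7%), 1 without dorsal replicate 2 (7.17%), ventral replicate 1 (4.08%) or ventral replicate 3 (4.64%), and 0 without ventral replicate 2 (3.83%). Among these single-array fits the share over all genes was highest where the members' count was 3 and lowest where it was 0. In between it did not follow the count, with 7.17% at a count of 1 and 7% at a count of 2.

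The groups did not overlap for 3 of 10 members with higher dorsal values (background 12%) and 0 of 10 with higher ventral values (background 6.74%). The same 3 members, Prdm1, Prdm14 and Ifitm1, were separated after cyclic loess and after median centring, where the dorsal background was 8.41% and 9.39%. A single gene on 3 against 3 arrays cannot give a two-sided exact permutation p below 0.1. The median difference of the members was -0.24, against -0.06 over all genes, and 6 of 10 were below 0, where 58% of all genes were. By equal-numbered pairs the members' median was -0.20, -0.42 and -0.21. It was -0.45 without both arrays numbered 1 and -0.38 without ventral replicate 1. Of the 10 members, 9 had a mean at or above the 25th percentile of all genes and 5 at or above their median. In pieces of tissue, fewer cells of a type and less RNA per cell cannot be told apart.

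Other genes of the germ cell pathway, chosen by function, also gave no call in limma over all genes. Of 9 measured genes of the signals and responses that specify germ cells, 7 had a difference above 0 and the median was 0.13. Bmp8b, a BMP ligand from extraembryonic ectoderm, had 4.54, 3.85 and 4.64 on the dorsal and 4.78, 4.61 and 5.03 on the ventral arrays, a difference of 0.46 ± 0.19 (SE) with an adjusted p of 0.489. Bmp4 had 0.33 ± 0.29 and Wnt3, which primes the epiblast for the BMP signal, -0.36 ± 0.20.

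Of 16 pluripotency and early embryo genes, 5 had a difference above 0 and 11 below, with a median of -0.07. Nanog, which germ cells share with the epiblast, had 2.14, 3.60 and 3.36 on the dorsal and 2.86, 2.82 and 2.74 on the ventral arrays, in full overlap. Lin28a, an RNA-binding protein that allows Prdm1 to be made, had -0.42 ± 0.18 (SE), Utf1 had 0.37 ± 0.17, and Sall4, the brightest of the list by mean signal, had -0.03 ± 0.19. Their adjusted p were 0.501, 0.521 and 0.964 in limma. Utf1 was higher in all ventral arrays, from 3.44 to 3.53 against 3.00 to 3.30.

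Of 12 genes of migration and survival, 3 had a difference above 0 and 9 below, with a median of -0.03. Cxcl12, the chemokine that draws germ cells to the ridges, had 5.47, 7.47 and 5.31 on the dorsal and 5.04, 5.26 and 5.27 on the ventral arrays, and was the only gene of this list above the receptor genes' 95th percentile on all 6 arrays. Its difference of -0.89 ± 0.43 (SE) had an adjusted p of 0.528 in limma, and dorsal array 2 stood apart from the other 5. The receptor Cxcr4 had -0.01 ± 0.24, Kit -0.11 ± 0.18 and its ligand Kitl 0.01 ± 0.27. Itgb1, an integrin chain needed for colonising the gonad, had 0.62 ± 0.25, with ventral array 2 at 5.03 and the others at 3.33 to 3.78. Fut4, which makes the SSEA1 sugar epitope used to sort germ cells, had 0.39 ± 0.18, and its ventral values of 2.93 to 3.12 lay above its dorsal values of 2.54 to 2.84.

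Of 19 germline RNA and piRNA genes, 11 had a difference above 0 and 8 below (median 0.01). Nanos2, the male paralogue of Nanos3, had 0.03 ± 0.23 (SE), Dnd1, which guards germ cell transcripts, 0.14 ± 0.25, Boll, a relative of Dazl, -0.47 ± 0.17, Tdrd1, a Tudor protein of the piRNA pathway, -0.34 ± 0.18, and Elavl2 0.15 ± 0.17. Of 18 meiotic and later germ cell genes, 4 had a difference above 0 and 14 below, with a median of -0.18. Sycp3, a chromosome axis protein of meiosis, had 3.42, 3.58 and 3.73 on the dorsal and 2.94, 3.07 and 2.90 on the ventral arrays, a difference of -0.61 ± 0.18 (SE) with an adjusted p of 0.441 in limma. Syce2, another protein of the synaptonemal complex, had -0.49 ± 0.20, and Stra8, the gatekeeper of meiotic entry, -0.16 ± 0.25. No gene of these lists exceeded the receptor genes' 95th percentile on all 6 arrays.

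Of 14 chromatin partners, 8 had a difference above 0 and 6 below (median 0.04). Prmt5, the arginine methyltransferase that binds Prdm1, had 0.00 ± 0.19 (SE) with values of 3.47 to 4.28, while its cofactor Wdr77 had 4.20, 4.93 and 4.97 on the dorsal and 7.36, 6.07 and 4.68 on the ventral arrays, a difference of 1.34 ± 0.61 with an adjusted p of 0.520 in limma. Hells, a chromatin remodeller of DNA methylation, had 0.67 ± 0.24. Of 15 AP-2 and Prdm paralogues, 4 had a difference above 0 and 11 below (median -0.14). Tfap2a, the neural crest relative of Tfap2c, had 3.04, 3.20 and 3.00 on the dorsal and 2.69, 2.48 and 2.55 on the ventral arrays, a difference of -0.51 ± 0.18 with an adjusted p of 0.465. Prdm10 had -0.55 ± 0.19 and Prdm12, a sensory neuron gene, -0.39 ± 0.22. Of 19 interferon-induced genes, 11 had a difference above 0 and 8 below (median 0.03), among them Bst2 at -0.54 ± 0.25, Mx2 at -0.32 ± 0.18 and Ifit3, the brightest, at 0.48 ± 0.27. The interferon-induced genes as a list had no common direction, at a median signal of 2.96 against 3.24 over all genes. Whether they bear on the lower ventral signal of Ifitm1 was not tested.

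**Figure D4:**
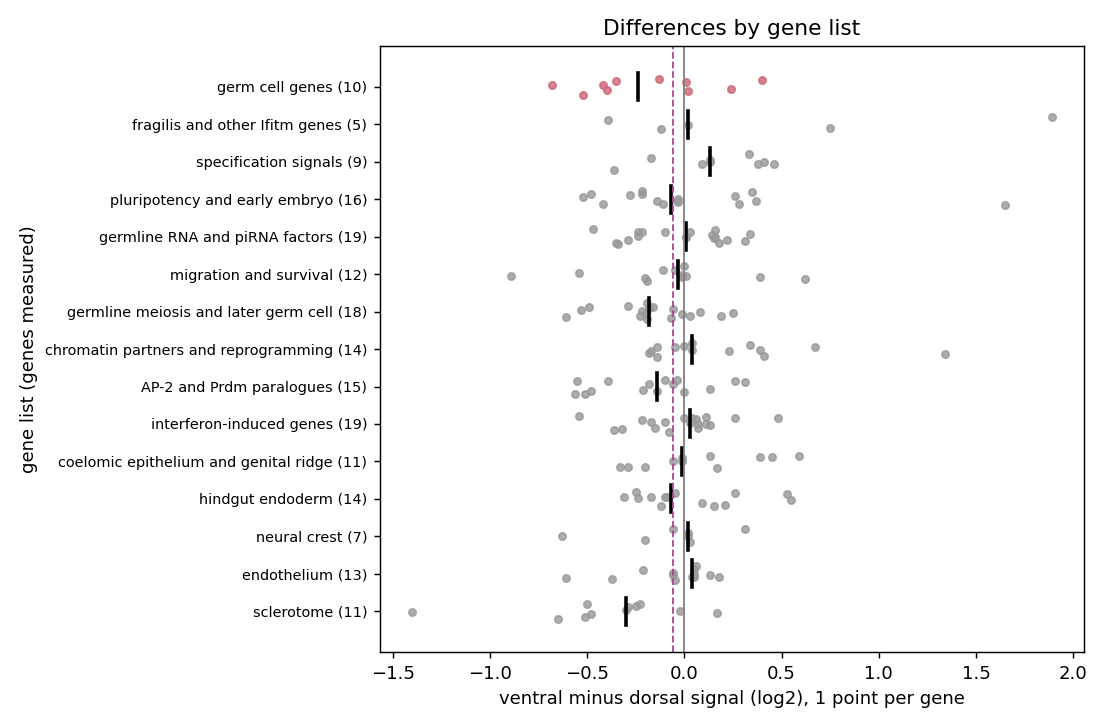
Ventral minus dorsal difference in log2 signal (x axis) of each measured gene, as 1 point, by gene list (y axis, number of genes in brackets), with the list median as a black bar and the median of all genes as a dashed line. The germ cell genes have a median of -0.24, and the sclerotome list lies furthest to the dorsal side at -0.30.

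Markers of other tissues that also use some of these genes were set beside them. Of 11 sclerotome genes, 10 had a difference below 0 and the median was -0.30. Their summed log2 signal was 44.8 to 47.4 on the dorsal and 40.3 to 42.0 on the ventral arrays, the direction of Prdm1, Prdm14 and Ifitm1. Sums also separated towards dorsal for the meiotic list (52.0 to 53.8, 49.8 to 50.3) and the AP-2 and Prdm paralogues (52.6 to 54.6, 50.3 to 51.8). Those of the specification signals (30.8 to 31.4, 31.8 to 33.2) and the chromatin partners (51.2 to 52.4, 53.2 to 56.7) separated towards ventral. How often sums over other genes separate was not determined, and 58% of all genes had a difference below 0. The sums were not made again after cyclic loess or median centring. Twist1 (-1.40 ± 0.35, SE) and Foxc2 (-0.50 ± 0.17) had the smallest p of the sclerotome list, with adjusted p of 0.435 and 0.464 in limma. The part of sclerotome genes in the values of Prdm1, Prdm14 and Ifitm1 was not tested. Of 11 genes of coelomic epithelium and genital ridge, the somatic home of germ cells, 5 had a difference above 0 and 6 below, with sums of 38.5 to 42.4 dorsally and 40.7 to 42.8 ventrally. Tcf21 had 0.59 ± 0.31, Gata6 0.45 ± 0.24 and Cbx2 0.39 ± 0.25, all higher ventrally, beside a list median of -0.01. Six4 (-0.33), Nr5a1 (-0.29) and Upk3b (-0.20) went the other way. Of 14 hindgut endoderm genes, 6 had a difference above 0 and 8 below, with sums of 51.4 to 54.7 and 51.8 to 54.5. Cldn6, a tight junction protein of early epithelia, had 0.55 ± 0.19 and Foxa3 0.53 ± 0.19, with adjusted p of 0.464 and 0.466 in limma. Both had an unadjusted p under 0.05 in limma, as had 4.32% of all genes towards ventral. Foxa2 (-0.31), Cdx1 (-0.25) and Epcam (-0.24) went the other way, and Krt18 had 0.09 ± 0.18. Of 13 endothelial genes, which mark the lining of the aorta, 7 had a difference above 0 and 6 below (median 0.04). They had sums of 42.6 to 44.3 dorsally and 41.7 to 44.3 ventrally and none above the receptor genes' 95th percentile on all 6 arrays. The genes of this list with the smallest p were lower ventrally, against the majority of the list: Sox7 had -0.61 ± 0.25 and Erg -0.37 ± 0.27. Sox18, the brightest by mean signal, had -0.21 ± 0.22. The 7 neural crest genes had sums of 22.6 to 23.9 and 21.7 to 23.6, with -0.63 ± 0.28 for Ets1, -0.20 ± 0.17 for Erbb3 and 0.31 ± 0.28 for Sox10.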

How the data were processed

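The authors deposited log2 values, 1 per probe set and array, made with Affymetrix Expression Console and RMA, per the submitters' processing notes, which give no versions. RMA corrects background, equalises the arrays and summarises probes. The log base was taken from the values (0.97 to 12.9). Of 25429 probe sets, 24675 had 1 gene symbol in the platform annotation, 0 had several and 754 were unnamed. A few genes of the wider lists are not analysed here.

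Ventral was compared with dorsal tissue on 3 arrays each with limma 3.58.1 in R 4.3.3 (lmFit, eBayes), without a filter, over all named genes, two-sided, with Benjamini-Hochberg adjustment over 24675 genes. The replicate number was a block because, per the labels, both regions came from the same embryos. Deviations from the group means of same-numbered arrays correlated at only -0.014 to 0.057 across genes, so the numbers are not shown to pair arrays, and a fit with no block accompanied it. Alternatives were cyclic loess, median centring, filters at the 25th percentile and the median, eBayes with trend and robust estimation, array weights and left-out arrays. The number of arrays limits the precision, and the p-values reflect only how these samples spread, which the labels number as biological replicates.

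The members and gene lists were chosen with earlier results of these data known. Named genes are the 10 members, 16 others named by function whatever their values, and in each wider list the 2 with the smallest unadjusted p and the brightest. Outside this rule, Six4, Nr5a1, Upk3b, Foxa2, Cdx1 and Epcam were added because their differences were below 0. Hspb11 is named as a gene called in an alternative fit.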

Additional observations from a re-analysis of the deposited data

How the results depend on the processing

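The count of members called at an adjusted p of 0.05 was 0 under all 16 alternatives. Without the replicate block limma called 1 gene in place of 0, Hspb11, and 3 members in place of 1 were higher in dorsal tissue at an unadjusted p under 0.05 (6.84% of all genes in place of 5.9%); whether the numbers pair the arrays is not settled by the labels. Leaving out arrays gave 0 to 5 genes called. At that unadjusted p, 0 to 3 members were higher in dorsal (3.83% to 8.47% of all genes) and 0 to 1 in ventral tissue (3.32% to 4.64%). Between 3 and 6 members were separated towards dorsal (16% to 26.2% of all genes) and 0 to 1 towards ventral (9.67% to 17.4%). The median member difference was -0.45 to -0.15. With fewer arrays groups separate more easily by construction: the dorsal background was 25.9% without replicate 1 and 26.2% without replicate 3. Taking the receptor genes' 90th or 99th percentile gave 7 or 0 of the 60 member values above it, in place of 1. The sign of Nanos3 turned with array weights (-0.0087) and, over left-out arrays, ran from -0.18 to 0.38. Signs also turned for Dppa3 (-0.73 to 1.13), Pou5f1 (-0.46 to 0.17), Tfap2c (-0.088 to 0.11 over left-out arrays) and Ifitm3 (-0.19 to 0.84). The cause was not tested. Ddx4, Dazl, Prdm1, Prdm14 and Ifitm1 stayed below 0 in every alternative that held them. For Prdm1, Prdm14 and Ifitm1, whose groups did not overlap, leaving out arrays could not turn the sign. Nor could leaving out equal-numbered arrays for Ddx4 and Dazl, whose 3 equal-numbered differences were all below 0. Genes at an unadjusted p under 0.05 numbered 1457 higher in dorsal and 1065 in ventral tissue, 877 in dorsal with the filter at the 25th percentile, 492 and 672 with the filter at the median, which test fewer genes, and 946 in dorsal without ventral replicate 2. The dorsal and ventral shares of 5.9% and 4.32% became 4.37% and 4.81% after cyclic loess and 4.59% and 5.28% after median centring. They became 4.74% and 4.91% with the filter at the 25th percentile, and 3.99% and 5.45% with the filter at the median. In each of these fits the ventral share was the larger. Signals within the receptor range limit what differences these arrays can show.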
